A study of Homo sapiens with 2 samples.

Results

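The fragile X protein family was examined through 4 genes, FXR1, FXR2, FMR1 and CYFIP1, picked by name from the 54261 genes listed in the count table. All 4 passed the filter on low values, a mean over both libraries of at least 1 CPM (CPM are counts scaled for library size), as did 12620 genes in all. The cells were RKO, a human colorectal carcinoma line, transfected with 1 of 2 siRNAs, the control si-NC or si-SRSF2, which is directed at the splicing factor SRSF2. The labels call the si-NC library the control and do not give the time after transfection. There was 1 library per group, made from total RNA with a stranded poly(A) kit, so no difference below had a replicate check, no test across genes was possible and no p-value is given. FXR1 was among the genes the study followed for splicing, and the family was chosen with earlier results of these libraries in view, so every value of its members is a description.

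FMR1 encodes FMRP, an RNA-binding protein that associates with ribosomes and represses the translation of bound mRNAs, and its silencing by an expanded repeat causes fragile X syndrome. FXR1 and FXR2 are its autosomal paralogues, with the same KH and Tudor-type domains, and the proteins form homomers and heteromers with each other. CYFIP1 is not a paralogue. It binds FMRP and the cap-binding protein eIF4E, and in another complex, the WAVE regulatory complex, it holds the actin nucleation promoter WAVE inactive until Rac1 binds. FXR1 is expressed widely, including in proliferating epithelial cancer cells, and its transcripts are alternatively spliced in the part that encodes the C-terminal region of the protein.

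FXR1 (ENSG00000114416.19) is a plus-strand gene of chromosome 3 (180868141 to 180982753 in GRCh38), and 24 transcripts of it are annotated in GENCODE release 44. The study assayed one splicing event in FXR1 by RT-PCR, and its primer pair is shown because it marks which part of the transcript is alternative.

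FXR1-F: CTGGTGTGGTTCGAGTGAGA

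FXR1-R: CCGCCTACGACGGTTAGTAC

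Both primers were found in 11 of the 24 transcripts, and the distance between their outer ends was 584 bp in 7 of them and 671 bp in the other 4. The canonical transcript FXR1-202 has 17 exons and gives the shorter product. Of the 5 introns between the primers in FXR1-202, 1 is kept in other annotated transcripts. This intron is 87 bp long and lies between exons 12 and 13, at chr3:180962941-180963027. It is kept in 4 transcripts (FXR1-209, FXR1-211, FXR1-223 and FXR1-224), of which 2 are annotated as protein coding, 1 as a target of nonsense-mediated decay and 1 as a retained intron. Another 9 transcripts splice it out. The reference sequence of exon 12, the intron and exon 13 (chr3:180962883-180963090, GRCh38, plus strand) is printed with the exons in lower case and the intron in capitals.

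FXR1 exons 12 and 13: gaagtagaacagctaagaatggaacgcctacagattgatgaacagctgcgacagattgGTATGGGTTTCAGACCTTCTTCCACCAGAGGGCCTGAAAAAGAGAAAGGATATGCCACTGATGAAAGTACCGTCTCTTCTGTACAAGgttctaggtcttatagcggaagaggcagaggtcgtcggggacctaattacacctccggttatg

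The intron starts with GT and ends with AG, the usual intron ends. Its length is a multiple of 3, and read in the frame of exon 12 it holds 0 stop codons, so keeping it lengthens the open reading frame by 29 codons. It is short: of 192925 introns in the canonical transcripts of genes listed in the count table, 2.56% were of this length or shorter. The median length was 1536 bp. SRSF2 is known to bind exonic sequences of the form CCNG or GGNG. Searched on the transcribed strand only, with overlapping matches counted, these letters occurred 0 times in the 58 bp of exon 12, 2 times in the intron and 2 times in the 63 bp of exon 13. The first 87 bp of introns on chromosome 3, this intron among them, held a median of 2 matches, and 57.0% of 11369 such windows held at least 2. The deposited counts are per gene, so the forms with and without the intron cannot be told apart in them.

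**Figure D1:**
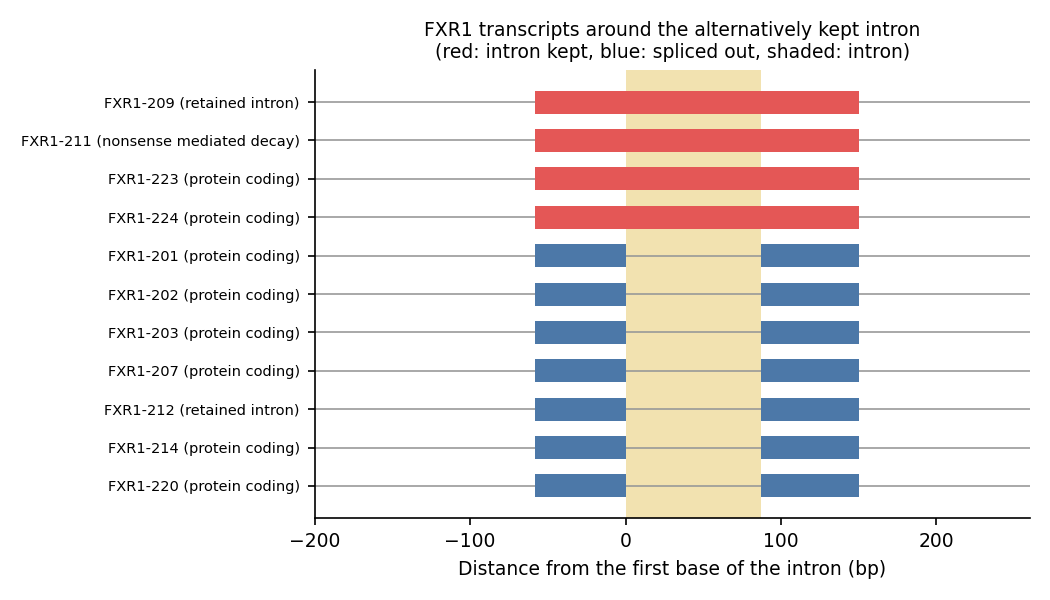
Exons of the 11 annotated FXR1 transcripts that hold both primers, drawn by distance in bp from the first base of the 87 bp intron (x axis), 1 transcript per line; boxes are exons and thin lines run through everything else. The 4 transcripts in red keep the shaded intron inside 1 long exon, and the 7 in blue splice it out.

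The counted reads came to 19931360 with si-NC and 14512802 with si-SRSF2, and a count of 0 allows up to 3 counts, or 0.151 and 0.207 CPM. The targeted gene SRSF2 had 1964 and 713 counts, or 98.5 and 49.1 CPM, and si-SRSF2 kept 49.9% of the control level. Of 10 colon epithelial markers, 4 passed 1 CPM (EPCAM, KRT8, KRT18 and CDX2) and 3 (KRT20, CDX1 and LGALS4) were at 0 in both libraries. KRT8, an epithelial keratin, was the one past 1.5-fold, with 547 and 618 counts (log2 ratio of si-SRSF2 over si-NC 0.62, interval 0.47 to 0.80), and the summed level of the 10 markers was 79.4 and 97.0 CPM. The part of this in other results was not tested. CDH1 had 10 and 6 counts. None of the 11 leukocyte, fibroblast and endothelial markers passed 1 CPM, and COL1A1 had the most counts of them, 13 in each library. CD68, which is not in these lists but is commonly used as a macrophage marker, had 763.0 and 982.2 CPM, and its part in other results was not tested. The mitochondrial share of the counts was 4.45% with si-NC and 4.82% with si-SRSF2. Some genes that all cells use, such as EIF4A1 and CSNK2B, were listed at 0 in both libraries, so a low count in this table need not mean a low level.

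The 4 members differed in direction. FXR1 was higher and FMR1 lower with si-SRSF2, each by more than counting error, while CYFIP1 differed by less than counting error and FXR2 lay at its edge. In si-NC their counts were 3160 for FXR1, 2297 for CYFIP1, 2126 for FXR2 and 1654 for FMR1. In si-SRSF2 they were 2699, 1708, 1626 and 896 in the same order. None of the 4 passed 1.5-fold in either direction. Among all 12620 genes, 4.18% were at least 1.5-fold higher and 3.52% at least 1.5-fold lower with si-SRSF2. The 95% Clopper-Pearson interval of the ratio, which covers counting error only and not the variation between transfections, lay above 0 on the log2 scale for 1 member and below 0 for 1. It lay above 0 for 21.0% of all genes (2646) and below 0 for 26.7% (3366), and with upper-quartile factors for 3020 and 2991 genes. A member outside counting error is thus not unusual in this pair of libraries.

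FMR1 (ENSG00000102081.16, chromosome X from 147911919 to 147951125, plus strand) had 83.0 CPM with si-NC (95% Poisson interval 79.0 to 87.1) and 61.7 CPM with si-SRSF2 (57.8 to 65.9). These intervals did not overlap. The si-SRSF2 library therefore held 74.4% of the control level, and the log2 ratio (si-SRSF2 over si-NC), taken after adding 0.5 CPM, was -0.42 (95% Clopper-Pearson interval -0.55 to -0.31). FMR1 had the largest difference of the 4 members in absolute log2 ratio. Of all genes, 7.69% had a lower ratio. Among the 2707 genes with a mean level within 1.5-fold of that of FMR1, the median ratio was -0.04 with an SD of 0.23, and 99 (3.66%) had a lower ratio. The antisense gene FMR1-AS1 was listed at 0 in both libraries. FMR1-IT1 overlaps 643 bp of FMR1 on the same strand and was not analysed here.

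FXR1 had 158.6 CPM with si-NC (153.1 to 164.2) and 186.0 CPM with si-SRSF2 (179.0 to 193.1), again without overlap. RNA was taken from all cells together, so a change in every cell and a change in some cells cannot be told apart in this or any other level. The level was 1.17-fold that of the control (1.11 to 1.24), and the log2 ratio was 0.23 (0.16 to 0.30). Of all genes, 17.5% had a higher ratio. Among 1465 genes of like level the median ratio was -0.03 with an SD of 0.22, and 136 (9.28%) had a higher ratio than FXR1. On the opposite strand FXR1 is overlapped by 2 lncRNA genes, over 2865 and 2793 bp, which were not analysed here, and over 399 bp by the pseudogene RPL32P10, listed at 0 in both libraries. The gene total thus differed from the control by less than that of FMR1 and in the other direction.

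FXR2 (ENSG00000129245.13, chromosome 17 from 7591230 to 7614897, minus strand) had 106.7 CPM with si-NC (102.2 to 111.3) and 112.0 CPM with si-SRSF2 (106.7 to 117.6). Its log2 ratio was 0.07 (-0.02 to 0.16). With upper-quartile factors it was 0.09 and the interval ran from 0.001 to 0.19, so whether FXR2 differed beyond counting error depended on the scaling. FXR2 overlaps 1560 bp of MPDU1 and 952 bp of SHBG, both on the opposite strand. MPDU1, which takes part in dolichol-linked sugar transfer, had 1008 and 757 counts, and SHBG, which encodes a steroid hormone carrier, had 9 and 1. The strand setting of the counting is not given in the sources used here, so reads of such a pair may not have been told apart, here or for FXR1 and CYFIP1.

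CYFIP1 (ENSG00000273749.5, chromosome 15 from 22867052 to 22981063, minus strand) had 115.3 CPM with si-NC (110.6 to 120.1) and 117.7 CPM with si-SRSF2 (112.2 to 123.4). The log2 ratio was 0.03 (-0.06 to 0.12), the smallest of the 4 in size. CYFIP1 overlaps 2311 bp of NIPA2, which encodes a magnesium transporter, on the opposite strand, with 1699 counts with si-NC and 1187 with si-SRSF2. Its paralogue CYFIP2, which takes the same place in the WAVE complex, was at a similar level. CYFIP2 had 2108 and 1847 counts, or 105.8 and 127.3 CPM, and a log2 ratio of 0.27 (0.18 to 0.36). The interval of CYFIP2 lay above that of CYFIP1.

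**Figure D2:**
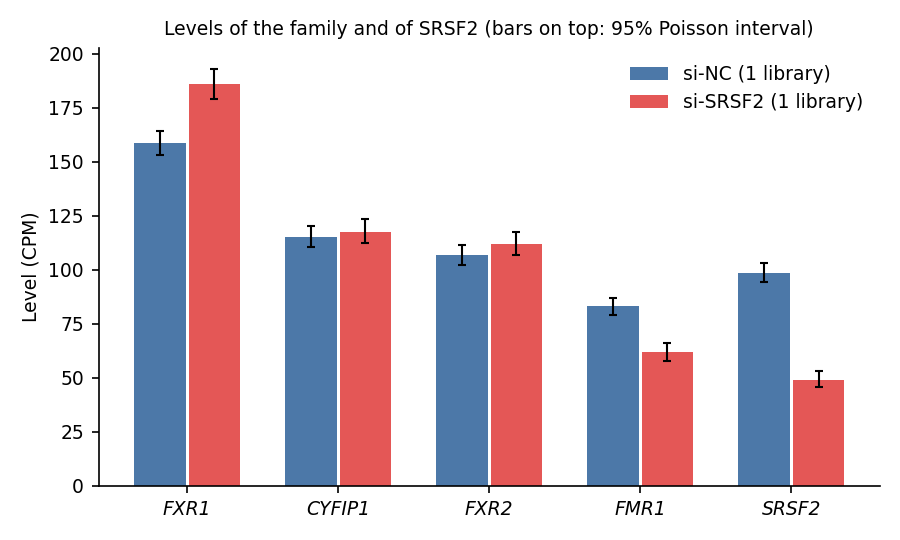
Level in CPM (y axis, from 0) of the 4 family members and of SRSF2 in the si-NC and si-SRSF2 libraries, 1 library each; error bars are 95% Poisson intervals of the count. FXR1 is higher with si-SRSF2 (186.0 against 158.6 CPM) and FMR1 is lower (61.7 against 83.0 CPM). For FXR2 and for CYFIP1 the error bars of the libraries overlap.

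**Figure D3:**
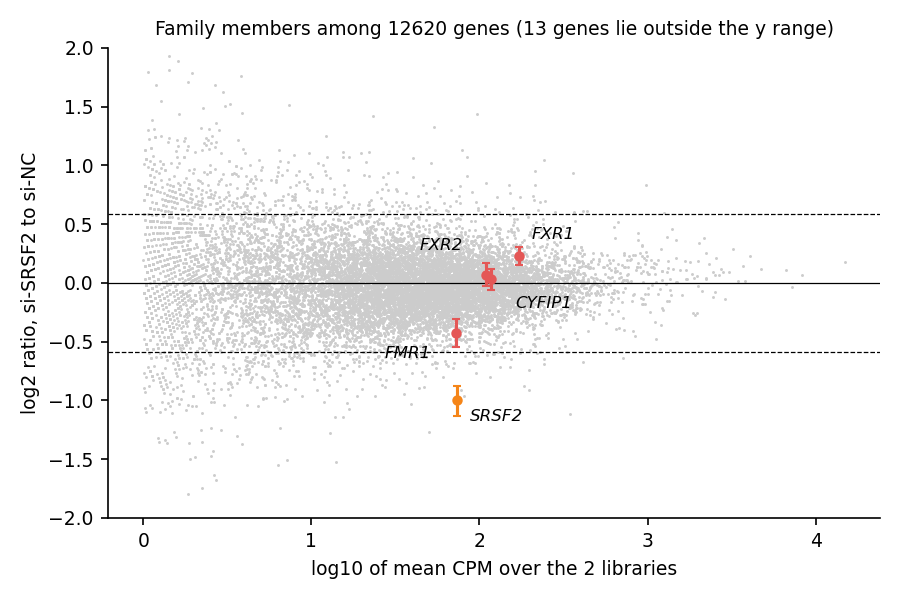
Log2 ratio (si-SRSF2 over si-NC) (y axis) against log10 of the mean CPM (x axis) for 12620 genes in grey, with the family in red and SRSF2 in orange, each with its 95% Clopper-Pearson interval; dashed lines mark 1.5-fold, and 13 genes lie outside the y range. FXR1, FXR2 and CYFIP1 lie within the bulk of genes of like level, FMR1 near its lower edge at -0.42, and SRSF2 at -0.997 below it.

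The balance between the paralogues was then taken within each library, where it does not depend on the scaling between libraries. In si-NC, FXR1 took 45.5% of the 6940 reads of the 3 paralogues (95% Wilson interval 44.4% to 46.7%), FXR2 30.6% (29.6% to 31.7%) and FMR1 23.8% (22.8% to 24.8%). In si-SRSF2, FXR1 took 51.7% of 5221 reads (50.3% to 53.0%), FXR2 31.1% (29.9% to 32.4%) and FMR1 17.2% (16.2% to 18.2%). The share of FXR1 was larger and that of FMR1 smaller with si-SRSF2 by more than counting error, and the share of FXR2 was not. There were 1.91 FXR1 reads for each FMR1 read with si-NC and 3.01 with si-SRSF2, a log2 change of 0.66 (95% counting interval 0.52 to 0.80). For FXR2 against FMR1 the log2 change was 0.50 (0.35 to 0.65), and for FXR1 against FXR2 it was 0.16 (0.04 to 0.28). The summed level of the 3 paralogues was 348.2 CPM with si-NC and 359.7 CPM with si-SRSF2, with a log2 ratio of 0.05 (-0.01 to 0.10).

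Levels of different genes can be set side by side only per length, and here the order depended on which length was taken. The coding sequences are 1863 bp for FXR1, 2019 bp for FXR2, 1896 bp for FMR1 and 3759 bp for CYFIP1. On the scale of CPM per coding kilobase with si-NC, FXR1 had 85.1, FXR2 52.8, FMR1 43.8 and CYFIP1 30.7, and no 2 neighbours in this order had overlapping Poisson intervals. In si-SRSF2 the values were 99.8, 55.5, 32.6 and 31.3, and there the intervals of FMR1 (30.5 to 34.8) and CYFIP1 (29.8 to 32.8) overlapped. The canonical transcripts are 8343 bp for FXR1, 2987 bp for FXR2, 4441 bp for FMR1 and 6826 bp for CYFIP1, the first with a 3' untranslated region of 6461 bp. On the scale of CPM per transcript kilobase with si-NC, FXR2 led with 35.7, followed by FXR1 with 19.0, FMR1 with 18.7 and CYFIP1 with 16.9. FXR1 (18.3 to 19.7) and FMR1 (17.8 to 19.6) did not differ beyond counting error on that scale. On the same scale with si-SRSF2 the values were 37.5 for FXR2, 22.3 for FXR1, 17.2 for CYFIP1 and 13.9 for FMR1, with no overlap between neighbours. FMR1 stood lowest there, and which 3' ends RKO cells use was not measured.

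**Figure D4:**
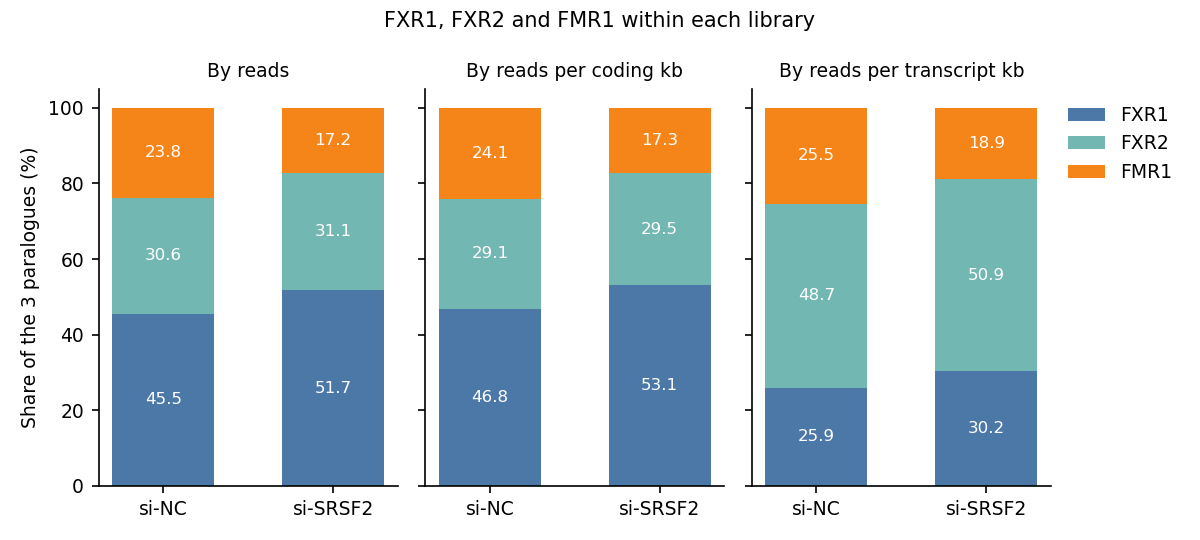
Shares in percent (y axis) of FXR1, FXR2 and FMR1 among the 3 paralogues in each library, by reads, by reads per coding kilobase and by reads per transcript kilobase. The share of FMR1 is smaller with si-SRSF2 on all 3 scales (17.2%, 17.3% and 18.9% against 23.8%, 24.1% and 25.5%), while which paralogue is largest depends on the length used.

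Near-identical paralogues can share reads, so the sequences of the members were compared. The coding sequences were 66.4% identical between FXR1 and FXR2, 66.5% between FXR1 and FMR1 and 64.9% between FXR2 and FMR1 over the aligned bases, and the canonical transcripts of these 3 genes shared 0 sequences of 31 bases. CYFIP1 and CYFIP2 were 79.0% identical and shared 11.

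The siRNAs themselves were compared with the members' transcripts, since an siRNA can also repress RNAs that match only its seed (bases 2 to 8, in capitals below). Of each duplex the study lists 1 strand, of which 19 bases, without the TT overhang, are shown with their complement. Only 1 siRNA against SRSF2 was sequenced, so effects of this duplex on other RNAs cannot be told apart from those of SRSF2.

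si-NC listed strand: uUCUUCGAacgugucacgu

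si-NC complement: aCGUGACAcguucgaagaa

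si-SRSF2 listed strand: uCCAAAUCcaggucgcgau

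si-SRSF2 complement: aUCGCGACcuggauuugga

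The complement of si-SRSF2 was complementary to the canonical SRSF2 transcript over all 19 bases, and neither strand was so to the canonical transcript of any of the 4 members. Its seed site, GTCGCGA, was in the 3' untranslated region of 0 of the 4 members and of 0.259% of 10425 genes with such a region that passed 1 CPM. The seed site of the listed strand of si-SRSF2, GATTTGG, occurred 1 time in FXR1 and not in FMR1, FXR2 or CYFIP1, against 14.8% of the 10425 genes. Neither site of si-NC occurred in any of the 4 regions (1.66% and 3.08% of genes). In the 3' untranslated region of SRSF2, the site of the listed strand of si-NC occurred 1 time. That of the listed strand of si-SRSF2 also occurred 1 time there. Only the canonical 3' untranslated regions on the transcribed strand were searched, which for FMR1 is 2281 bp. A match in letters is not a measured effect.

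Other genes of the pathway were read from lists, with the median log2 ratio of all 12620 genes, -0.02, as the level for comparison. Counts of genes outside counting error are to be read against 21.0% of all genes above 0 and 26.7% below. Proteins that bind the family came first. All 10 partners passed 1 CPM, with a median of -0.11. CYFIP2 alone lay above 0 by its interval, and 5 lay below. NUFIP2, an RNA-binding partner of FMRP, had 5808 and 3533 counts (log2 ratio -0.26), and TOP3B, a topoisomerase that acts on RNA with TDRD3 in FMRP complexes, had 1031 and 621 (-0.27). PURA, a nucleic acid-binding protein of transport granules, was the lowest with 1245 and 701 (-0.37), and STAU1 and RANBP9 had -0.14 and -0.13. TDRD3 itself (-0.08, interval -0.33 to 0.16) and NUFIP1 (-0.06) did not differ beyond counting error, nor did YBX1, an abundant mRNA-binding protein, at 0.03. None of the 10 passed 1.5-fold.

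CYFIP1 works in 2 complexes. In the WAVE regulatory complex, 8 of 11 genes passed 1 CPM, with a median log2 ratio of 0.01, 2 intervals above 0 and 2 below. The scaffold subunit NCKAP1, the direct partner of CYFIP1, had 9650 and 6994 counts (-0.01, interval -0.05 to 0.04), and the small subunit BRK1 had 0.04. The expressed Abl interactors differed in direction. ABI1 had 158.7 CPM with si-NC and 172.2 CPM with si-SRSF2 (0.12, interval 0.04 to 0.19), and ABI2 had 242.4 and 179.5 CPM (-0.43, -0.50 to -0.36). ABI2 was the lowest of the complex, at nearly the same log2 ratio as FMR1. Of the actin regulators that give the complex its name, WASF2 had -0.16 and WASF1 -0.09, and WASF3 had 2 and 0 counts. NCKAP1L and ABI3, subunits known from blood cells, had 14 and 10 counts and 0 and 0.

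RAC1, the GTPase that acts upstream of the WAVE complex, and the 9 genes of the Arp2/3 complex, which acts downstream of it and nucleates branched actin, all passed 1 CPM. Their median log2 ratio was -0.04, with 4 intervals above 0 and 3 below. RAC1 had 3432 and 3510 counts, or 172.2 and 241.8 CPM (0.49, interval 0.42 to 0.56), the highest of the group. ARPC4 had 0.43, ARPC1A 0.21 and ARPC3 0.19. ARPC5 was the lowest, with 3186 and 1583 counts (-0.55, -0.64 to -0.46), and the 2 actin-related subunits ACTR2 and ACTR3 had -0.39 and -0.21. Genes of the complex thus lay on both sides of 0. It can hold either member of a subunit pair, and ARPC5L had -0.07 beside ARPC5, and ARPC1B -0.07 beside ARPC1A.

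In the cap-binding arm, where CYFIP1 holds eIF4E on mRNAs bound by FMRP, 5 of 6 genes passed 1 CPM, with a median of -0.10. EIF4E, the cap-binding protein, had 1376 and 990 counts (-0.02, -0.14 to 0.10). Its repressor EIF4EBP2, the form known from neurons, had 1364 and 809 (-0.29, -0.42 to -0.17), and the scaffold EIF4G1 had -0.13. EIF4EBP1 (-0.10) and EIF4ENIF1 (0.09) did not differ beyond counting error. EIF4EBP3 had 4 and 0 counts.

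FXR1 and FMRP gather in stress granules, the RNA-protein bodies that form when translation initiation stops. All 11 genes of their core passed 1 CPM, with a median log2 ratio of -0.01, 2 intervals above 0 and 4 below. G3BP2, one of the 2 proteins that seed the granules, was the only one past 1.5-fold, with 3517 and 3938 counts, or 176.5 and 271.3 CPM (0.62, interval 0.55 to 0.69). Its paralogue G3BP1 was the lowest, with 357.9 and 296.7 CPM (-0.27, -0.33 to -0.22). CAPRIN1, which binds both FMRP and G3BP1, had -0.09, and TIAL1 had -0.20, while TIA1, USP10, UBAP2L, ATXN2 and ATXN2L lay within counting error of 0.

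FMRP and FXR1 also bind Argonaute proteins, which carry microRNAs. All 11 genes of the silencing machinery passed 1 CPM, and their median was -0.14, with 0 intervals above 0 and 6 below. AGO2, the Argonaute that cleaves its targets, was the only one past 1.5-fold, with 17266 and 8076 counts, or 866.3 and 556.4 CPM (-0.64, interval -0.68 to -0.60). DICER1, which makes microRNAs and siRNAs from their precursors, had 3763 and 1889 counts (-0.54), TNRC6A, the scaffold that Argonautes recruit, -0.47, PRKRA, a partner of Dicer, -0.30, AGO3 -0.23 and AGO1 -0.12. MOV10, an RNA helicase that binds FMRP, had -0.01 (-0.10 to 0.08), and TNRC6B had 0.03. Both libraries came from siRNA-transfected cells.

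Among enzymes that modify the family, 8 of 9 genes passed 1 CPM, with a median of 0.03. PPP2CA, the catalytic subunit of a phosphatase that acts on FMRP, had 3718 and 2398 counts (-0.17, -0.25 to -0.10). The other 7, among them the kinases PAK1 (0.04), which acts on FXR1, and RPS6KB1 (0.05) and CSNK2A1 (0.02), which act on FMRP, lay within counting error of 0. FBXO4, a ubiquitin ligase subunit for FXR1, was the highest at 0.17 (-0.12 to 0.48).

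**Figure D5:**
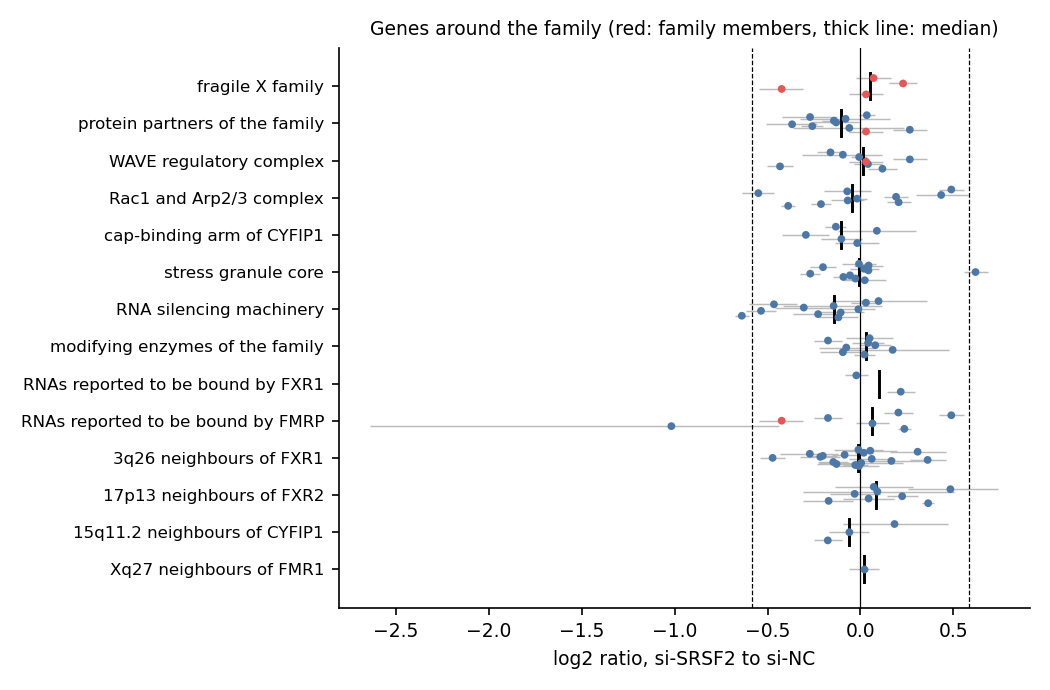
Log2 ratio (si-SRSF2 over si-NC) (x axis) of the genes that passed 1 CPM in each list other than the cell type markers (y axis, 1 point per gene, red for family members), with 95% Clopper-Pearson intervals in grey and the median of each list as a thick line; dashed lines mark 1.5-fold. The medians run from -0.14 for the silencing machinery to 0.10 for RNAs bound by FXR1, and the points past 1.5-fold are G3BP2, AGO2 and ARC.

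RNAs that the family has been reported to bind were read last. For FXR1, 2 of 4 passed 1 CPM. CDKN1A, which encodes the cell cycle inhibitor p21, had 3143 and 2661 counts, or 157.7 and 183.3 CPM (0.22, interval 0.14 to 0.29), and MYC had 5281 and 3787 counts (-0.02, -0.08 to 0.04). TNF had 0 counts in both libraries. TERC, the telomerase RNA, which has no poly(A) tail, had 1 count with si-NC and 14 with si-SRSF2, a ratio of 19.2 with a counting interval of 2.92 to 813. For FMRP, 7 of 9 passed 1 CPM, with a median log2 ratio of 0.06 (0.13 with a minimum of 5 CPM), 3 intervals above 0 and 3 below. RAC1 was the highest at 0.49. APP, the amyloid precursor, had 15515 and 13311 counts (0.24) and SOD1 0.20, whereas DLG4, a postsynaptic scaffold, had 0.06 (-0.02 to 0.15). PPP2CA and FMR1, whose own mRNA FMRP binds, had -0.17 and -0.42. ARC was the only one past 1.5-fold, with 38 and 10 counts (-1.02, -2.64 to -0.44). The neuronal mRNAs MAP1B and CAMK2A had 1 and 1 and 0 and 0 counts.

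The genes whose levels lay closest to those of FXR1 in both libraries were searched among the 10491 genes whose mean was 5 CPM or more, by Euclidean distance in log2 CPM over the 2 libraries. They were ZNF655 (distance 0.005), CDKN1A (0.022), SNRPD2 (0.037), RAPGEF1 (0.048) and PSMD8 (0.048). With 2 libraries many genes can lie this close.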

How the data were processed

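RNA-seq of RKO cells was used, with 1 si-NC and 1 si-SRSF2 library. Per the study's methods the authors took adaptors and reads of low quality out of the 150 bp read pairs, aligned the rest to GRCh38 with HISAT2 (2.0.4 in the submitters' processing notes) and counted them per gene with HTSeq. They deposited raw counts, listed by symbol, without normalization. Here TMM factors (edgeR 4.0.16, R 4.3.3) gave CPM, and log2 ratios used a pseudocount of 0.5 CPM. Genes were kept from a mean of 1 CPM. With 1 library per group no test was run. Intervals were at 95% (Clopper-Pearson, Poisson, Wilson, and a normal approximation for ratios between members), calculated in SciPy 1.17.1, and cover counting error only. Members and lists were chosen with earlier results of these data known. The genes named were the members, SRSF2, list members past 1.5-fold, the lowest and highest of a list and those whose role is described, and the 5 genes nearest to FXR1. Gene models came from GENCODE release 44 (GRCh38), and primers and siRNAs from the study's supplement. The alignment of coding sequences used Biopython 1.88. The junction reads of the FXR1 event were not used here. The calculations were tested on simulated data. Alternatives were other scalings (total counts, upper quartile, size factors of DESeq2 1.42.0, and TMM without mitochondrial genes and the 20 most abundant genes), pseudocounts of 0.1 and 2 CPM, no filter, a minimum of 5 CPM and, for shares, division by length.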

Additional observations from a re-analysis of the deposited data

How the results depend on the processing

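No paired analysis was possible because there were no replicates to pair, and for the same reason none could be left out. The log2 ratio stayed between 0.23 and 0.25 for FXR1, 0.07 and 0.09 for FXR2, -0.43 and -0.40 for FMR1, 0.03 and 0.05 for CYFIP1 and -1.003 and -0.97 for SRSF2 under every scaling and pseudocount tried. Of 174 values under alternatives, 157 stayed within a set range, 17 moved and 0 changed the direction of a value whose range left out 0. The range was 1.5 times the main count for numbers of genes, and the counting interval for ratios of single genes and for shares. For list medians it was the medians of the members' interval limits, which are not an interval of the median itself. The median over all genes moved from -0.02 to -0.001 with upper-quartile factors, under which the intervals of FXR2, DLG4, YBX1 and GSK3B came to lie above 0 and those of AGO1, RANBP9, DDX3X, DCUN1D1 and SEC62 to include it; the other scalings changed no such call among the members and listed genes. Some medians near 0 changed sign. That of the WAVE complex ran from -0.01, without a filter on low counts, to 0.04, with upper-quartile factors. That of the stress granule core ran from -0.01 to 0.02 and that of the 3q26 neighbours from -0.01 to 0.01, both highest with upper-quartile factors. Per kilobase of canonical transcript, the shares of FXR1, FXR2 and FMR1 were 25.9%, 48.7% and 25.5% in si-NC and 30.2%, 50.9% and 18.9% in si-SRSF2. Per coding kilobase, chosen after seeing the data, those of FXR1 and FXR2 were 46.8% and 29.1% in si-NC and 53.1% and 29.5% in si-SRSF2. The lengths alone set these shifts. Without a filter on low counts the median of RNAs bound by FXR1 was 0.22, because TERC then entered, and with a minimum of 5 CPM that of RNAs bound by FMRP was 0.13, because ARC then left. The number of genes past 1.5-fold was 527 higher and 444 lower, against 254 and 220 with a pseudocount of 2 CPM, 1262 and 837 without a filter and 202 and 237 with a minimum of 5 CPM. Depth limits genes with few counts, such as ARC and TERC, whose counting intervals are wide.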

Other observations

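Genes next to the members on their chromosomes were read as well, with no test. Of 22 genes at 3q26, the region of FXR1 that is often gained in carcinomas, 17 passed 1 CPM, with a median log2 ratio of -0.01, 2 intervals above 0 and 7 below. FXR1, at 0.23, was higher in si-SRSF2, whereas PRKCI, which encodes a kinase in the same region, had 3733 and 2361 counts (-0.20). PIK3CA had -0.22. PHC3, a Polycomb protein, was the lowest with 5128 and 2689 counts (-0.47), and MFN1, a mitochondrial fusion GTPase, was the highest with 1801 and 1687 (0.36). TTC14 had 0.31 and DNAJC19 0.00 (-0.22 to 0.23).

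Of 12 genes near FXR2 at 17p13, 8 passed 1 CPM, with a median of 0.08. CD68, which encodes a lysosomal glycoprotein, had 15206 and 14256 counts (0.36), while EIF4A1 in the same region was listed at 0 in both libraries. POLR2A had 0.22. KDM6B was the lowest at -0.17. At 15q11.2, the 3 genes that are lost or gained together with CYFIP1 all passed 1 CPM. NIPA1 had 3589 and 2313 counts (-0.18, -0.25 to -0.10), while NIPA2 (-0.06) and TUBGCP5 (0.18, -0.09 to 0.47) lay within counting error of 0. Near FMR1, of 4 genes only IDS, a lysosomal sulfatase, passed 1 CPM, with 2872 and 2120 counts (0.02, -0.06 to 0.10). FMR1NB, FMR1-AS1 and AFF2 had 0 counts in both libraries.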
